A study of Drosophila melanogaster with 3 samples.

Results

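Chromatin immunoprecipitation sequencing (ChIP-seq) of fd64A, a forkhead transcription factor also named FoxL1, was examined at 10 genes of the Wnt signalling pathway in Drosophila melanogaster embryos. The genes were taken by symbol from the annotation by a rule that names no peak value, though with earlier results of these data known, and are the ligands wg, Wnt4 and Wnt5, the receptors fz, fz2, arr and drl, the effectors arm and pan, and the feedback inhibitor nkd. They are 10 of 13945 protein-coding genes on the 6 chromosome arms used. The samples form 1 group of 3 biological replicates of whole embryos, 8 to 14 h old and of both sexes. The embryos came from 1 transgenic strain whose fd64A protein is tagged C-terminally with green fluorescent protein (GFP). There is no untagged or mutant strain among these samples, so the data give positions of enrichment over an input control and no response of any gene. Whole embryos hold many cell types, so a peak does not tell in which cells the factor was bound.

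Wnt ligands are secreted, lipid-modified signals. The fly ligand Wingless, the product of wg, binds a Frizzled receptor and the co-receptor Arrow at the cell surface, which stops the destruction of Armadillo, the fly β-catenin. Armadillo then enters the nucleus and activates target genes together with Pangolin, the fly TCF. In fly embryos the pathway maintains segment boundaries and patterns the epidermis and gut, and Wnt5 with its receptor Derailed guides axons across the midline. Forkhead proteins bind DNA words related to GTAAACA. In mouse, Foxl1 marks cells beneath the gut epithelium that secrete Wnt proteins.

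The sequences below hold forkhead words within 50 bp of member summits, and the strongest member peak is added because it lacks such a word. The word searched was GTAAACA, the core word of many forkhead factors, or GTAAATA, which differs near its end, or either of them with a leading A in place of G, which gives ATAAACA and also the plain spelling ATAAATA. Both strands were searched. All sequences are the plus strand of the release 6 reference, 5′ to 3′. Capitals mark a forkhead word, except in the second line, where they mark ACAAATA and its reverse complement. ACAAATA is not marked in the other lines, though fz2 929 holds it too. Each of 101 bases is centred on a summit of the list of reproducible peaks, called the IDR list after the irreproducible discovery rate procedure, and the shorter one is the stretch that ends just before the annotated start of drl. The number after each gene is the rank of the peak by signal in that list, from 1 for the strongest of 2919.
fz 175, chr3L:14366261-14366361: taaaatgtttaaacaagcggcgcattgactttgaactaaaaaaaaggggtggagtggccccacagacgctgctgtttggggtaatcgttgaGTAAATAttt
fz 151, chr3L:14304008-14304108: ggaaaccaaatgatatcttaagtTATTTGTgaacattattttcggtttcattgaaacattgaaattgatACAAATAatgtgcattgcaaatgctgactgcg
fz2 929, chr3L:19191988-19192088: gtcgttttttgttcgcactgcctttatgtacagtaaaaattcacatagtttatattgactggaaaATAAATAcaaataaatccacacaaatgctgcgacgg
drl 752, chr2L:19192045-19192145: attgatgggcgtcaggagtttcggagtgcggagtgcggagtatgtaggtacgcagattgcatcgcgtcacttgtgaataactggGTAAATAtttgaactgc
drl 1680, chr2L:19190326-19190341: aagtgttTGTTTATcc

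Peaks of the IDR list for fd64A lay at all 4 receptor genes, at the inhibitor nkd and at 1 of the 3 ligand genes, Wnt4. No IDR peak lay at the ligands wg and Wnt5 or at the effectors arm and pan. The list holds the strongest 2919 pooled peaks, so a peak in it need not be strong in every replicate. A peak was counted for a gene when its summit lay between 2000 bp upstream of the most upstream transcription start site (TSS) and the end of the gene. By this rule 6 of 10 members held 13 IDR summits, beside 16.9% of all protein-coding genes with at least 1. Of the 13 summits, 4 were in fz, 2 each in fz2, arr, drl and nkd, and 1 in Wnt4. None of them lay in the window of another annotated gene.

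The members are long genes, and the share of genes with a peak grew with length. The median window was 27.7 kb for the members and 4.17 kb for all protein-coding genes. Of the 1395 shortest genes, up to 2.73 kb, 5.02% held an IDR summit, and of the 1395 longest, from 16.6 kb, 46.3% did. Each member was therefore set beside the 500 protein-coding genes nearest to it in window length. Their shares add up to 4.05 genes with a peak for the 10 members, where 6 were found. Their mean numbers add up to 8.32 summits, where 13 were found. For the 4 receptor genes these sums were 1.88 genes and 4.32 summits, beside the 4 genes and 10 summits found. For the 3 ligands the sum was 0.93 genes and for the effectors 0.784, beside 1 and 0 found. The effector sum holds 47.6% for pan, although on chromosome 4, where pan lies, 1 of 80 protein-coding genes had an IDR summit. The sums for the 10 members include pan in the same way. For fz and fz2, with windows of 96.3 and 96.4 kb, the 500 nearest genes run from 38.0 to 151 kb. The match in length is therefore loose for these 2 receptor genes, and the sums carry that looseness. These sums describe the genes nearest in length and are no test, since the members were not drawn at random.

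**Figure D1:**
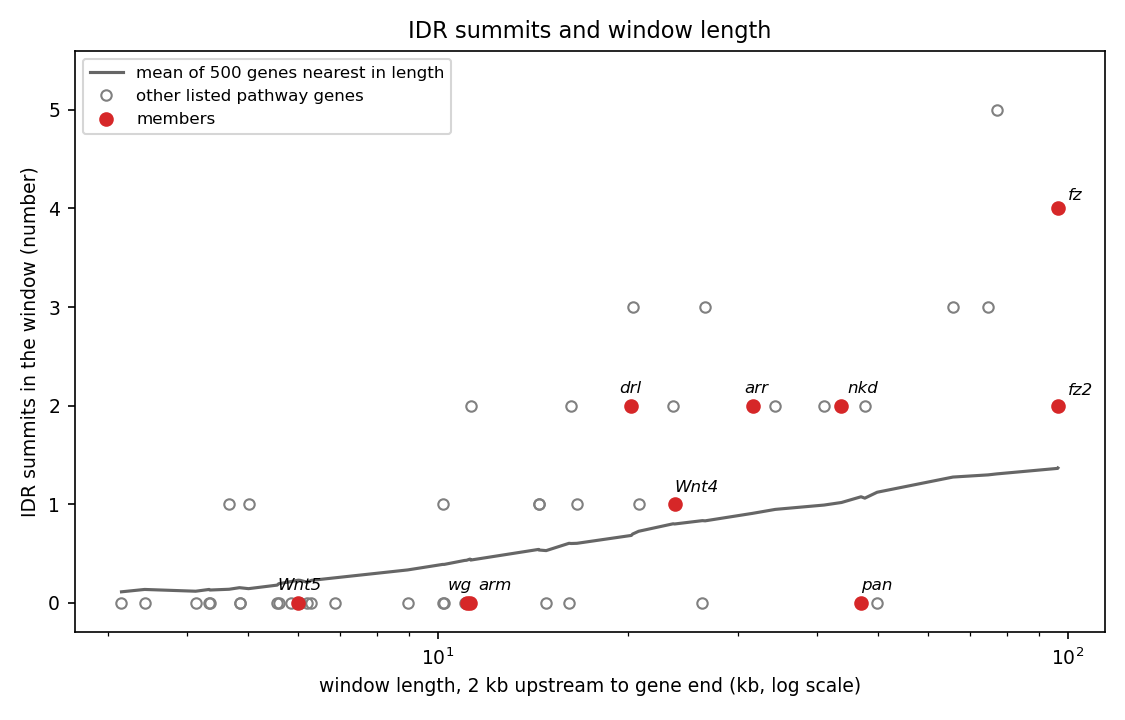
IDR summits per gene (vertical axis) against the length of its window in kb (horizontal axis, log scale). Red points are the 10 members, open circles the 40 other listed pathway genes, and the line is the mean of the 500 protein-coding genes nearest in length. The 6 members with a peak have windows from 20.3 kb (drl) to 96.4 kb (fz2), where the line runs from 0.684 to 1.37 summits. The line includes genes without a peak, so lying above it is no result for members picked because they hold one. pan, at 46.9 kb, has none.

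To ask whether single replicates showed the same genes, the strongest 2919 peaks of each replicate, called leading peaks, were taken to match the length of the IDR list. The members together held 18 leading summits in replicate 1, 10 in replicate 2 and 14 in replicate 3, which is 14.0 ± 4.0 (SD, n = 3). At least 1 leading summit lay at 6, 5 and 5 members in the 3 replicates. These single-replicate counts have no share of all protein-coding genes beside them, and the members are long genes. The 4 receptor genes fz, fz2, arr and drl had a leading summit in every replicate. These are 4 of 10 members, beside 11.2% of all protein-coding genes and a sum of 3.07 from genes of like length. Wnt4 had none in replicate 2, and nkd had none in replicate 3.

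Of the 13 member peaks, 6 overlapped a leading peak in all 3 replicates, 6 in 2 replicates and 1 in a single replicate. The same overlap in all 3 replicates was found for 57.8% of all IDR peaks. Replicate 2 had the fewest member peaks that overlapped a leading peak, 9 of 13, against 12 in replicate 1 and 10 in replicate 3. It was also the lowest over all IDR peaks, of which 83.8%, 78.4% and 80.6% overlapped a leading peak in replicates 1, 2 and 3. Without replicate 2, 10 of the 13 were leading in both others. Replicate summits lay a median of 23 bp from the IDR summit, against 15 bp for all IDR peaks. At 11 of the 13 peaks all 3 lay within 50 bp. The counts of 10 and 11 peaks have no share of all IDR peaks beside them. The median rank of the member peaks was 1465 in a list whose middle rank is 1460, so as a set they were neither strong nor weak for this list.

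**Figure D2:**
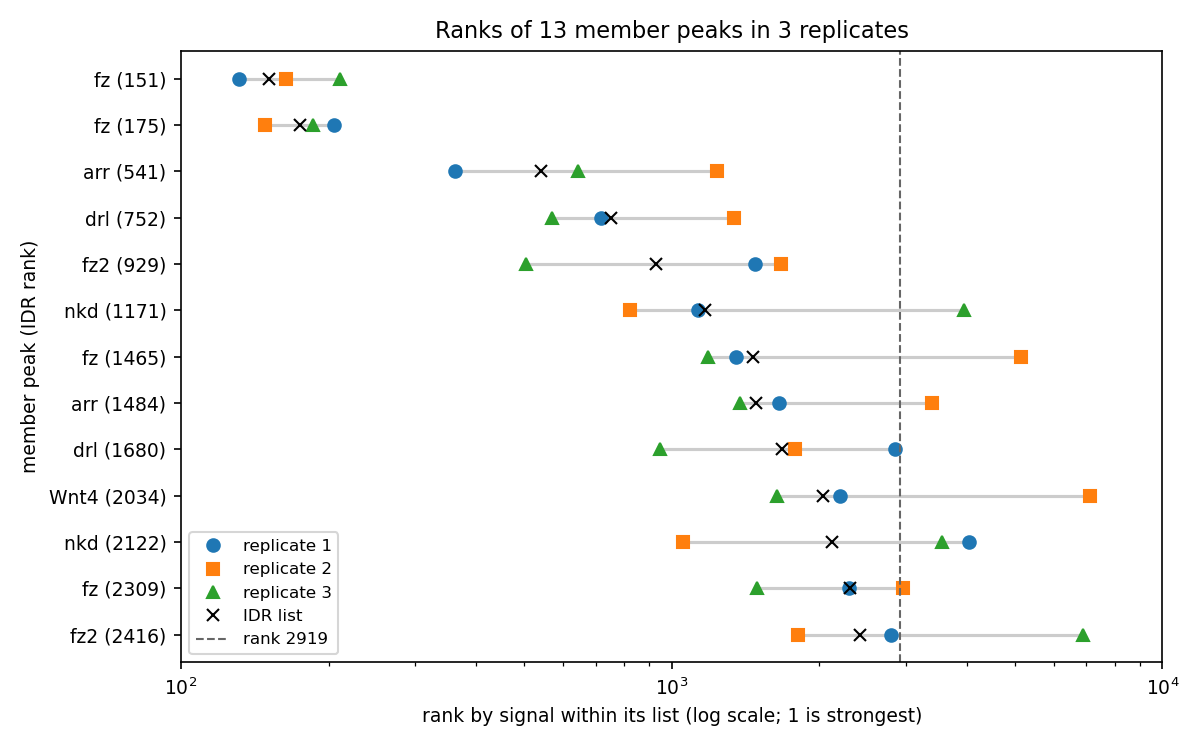
Rank by signal of the 13 member peaks in the IDR list (crosses) and of the overlapping peak in replicates 1, 2 and 3 (circles, squares, triangles), on a log scale where 1 is the strongest. The dashed line marks rank 2919, the limit of the leading peaks. The 2 strongest fz peaks rank between 131 and 211 in all replicates, while the Wnt4 peak runs from 1639 to 7129.

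fz encodes Frizzled, a receptor for Wnt ligands that also sets planar cell polarity. The gene (FBgn0001085, chr3L:14274343-14368639, plus strand) held the 2 strongest member peaks. The stronger, chr3L:14303932-14304164, had rank 151 with its summit at 14304058 in the first intron, 29715 bp from the TSS. It ranked 131, 164 and 211 in replicates 1, 2 and 3, with deposited signals of 331, 218 and 226. The next, chr3L:14366186-14366498, had rank 175 with its summit at 14366311, in intron 4 and 91968 bp from the TSS. Its ranks were 205, 148 and 186, at signals of 287, 233 and 235. Both were therefore among the strongest 211 peaks of every replicate, and their order changed between replicates, so they are not told apart in strength. The TSS closest to the peak of rank 175 is not that of fz but of CG13481, at 3396 bp.

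The other fz peaks were weaker and less even. The peak chr3L:14297442-14297845, in the first intron as well, had rank 1465 and replicate ranks of 1352, 5150 and 1183. It was thus outside the leading peaks in replicate 2. The peak chr3L:14354626-14355029, in intron 4, had rank 2309 and replicate ranks of 2299, 2957 and 1493, and fell just outside the leading peaks in replicate 2. fz as a whole held 6, 2 and 5 leading summits in the 3 replicates, which is 4.33 ± 2.08 (SD, n = 3). Of the 500 genes nearest to it in length, 52.6% had an IDR summit and 10.6% had at least 4. Leading summits away from the IDR peaks numbered 2 in replicate 1 and 1 in replicate 3.

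fz2 encodes Frizzled 2, a second receptor for Wingless. The gene (FBgn0016797, chr3L:19140975-19235373, minus strand) has nearly the length of fz and held 2 IDR summits, not 4. The stronger, chr3L:19191961-19192094, had rank 929 and replicate ranks of 1481, 1667 and 505. Its summit at 19192038 lay in an intron of 13756 bp in the transcripts from the upstream starts, 21390 bp upstream of the internal TSS from which 5 of 8 annotated transcripts begin. The weaker, chr3L:19170406-19170809, sat on that internal TSS, with its summit 40 bp downstream of it in the non-coding part of an exon. It had rank 2416 and replicate ranks of 2803, 1806 and 6899, so replicate 3 was outside the leading peaks. Each replicate had 3 leading summits in fz2, of which 2, 2 and 1 lay on the IDR peaks in replicates 1, 2 and 3. For 32.8% of the genes nearest in length the number of IDR summits was 2 or more.

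**Figure D3:**
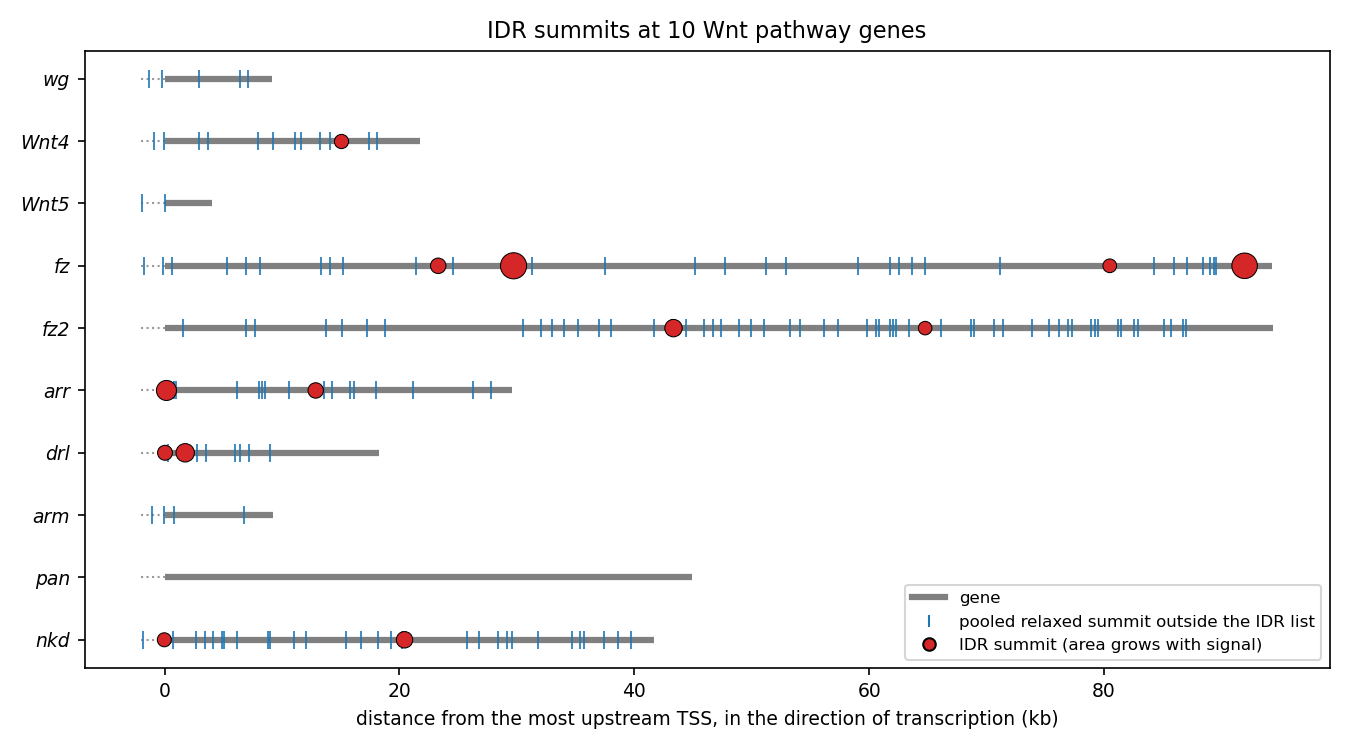
Positions of peak summits at the 10 members, in kb from the most upstream TSS in the direction of transcription. Grey bars are genes, dotted lines the 2 kb upstream, red points the 13 IDR summits with area growing with signal, and blue ticks pooled relaxed summits outside the IDR list. The 2 largest points lie 29.7 and 92.0 kb into fz. A point lies at the start of arr, drl and nkd, and pan has no tick at all.

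arr encodes Arrow, the LRP co-receptor that works with Frizzled. Its stronger peak (gene FBgn0000119, minus strand of arm 2R, 29590 bp long) had rank 541 and lay 158 bp downstream of the TSS, in a first intron of 1070 bp. Replicate ranks were 361, 1239 and 645, at signals of 227, 90.3 and 138. Replicate 2 had the weakest rank, yet all 3 were leading. The weaker peak, of rank 1484, lay in intron 2, 12868 bp from the TSS, with replicate ranks of 1652, 3391 and 1380. arr held 4, 1 and 3 leading summits in the replicates, which is 2.67 ± 1.53 (SD, n = 3). Of these, 2, 1 and 2 lay on the IDR peaks.

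drl encodes Derailed, a Ryk-family receptor for Wnt5 that is known from axon guidance. The gene (FBgn0015380, chr2L:19190342-19208621, plus strand) had both its peaks near the start. The peak of rank 752, chr2L:19192033-19192181, had its summit 1753 bp downstream of the TSS in the first intron and ranked 717, 1342 and 569 in the replicates. The peak of rank 1680, chr2L:19190174-19190577, had its summit 34 bp downstream of the TSS in the non-coding part of the first exon, with replicate ranks of 2856, 1783 and 947. Each replicate had 2 leading summits in drl, and all of them lay on the IDR peaks. drl had 9.86 IDR summits per 100 kb of window, the highest density of the members. The others with a peak ranged from 2.07 in fz2 to 6.33 in arr.

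nkd encodes Naked cuticle, an inhibitor that acts on Dishevelled and is itself induced by Wingless signalling. The gene (FBgn0002945, chr3L:19003741-19045449, minus strand) had a peak at its TSS and another inside its long first intron. The intronic peak, chr3L:19024815-19025218, had rank 1171 with its summit 20432 bp from the TSS, and ranked 1129, 823 and 3937 in the replicates. The promoter peak, chr3L:19045273-19045676, had rank 2122 with its summit 26 bp upstream of the TSS, and ranked 4029, 1054 and 3562. It was the member peak that was leading in a single replicate. In replicate 3 neither peak reached the leading peaks, and the best summit anywhere in nkd ranked 2928, next to the limit of 2919.

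Wnt4 encodes a ligand known from cell movement and axon targeting. The gene (FBgn0010453, chr2L:7255419-7277171, minus strand) had 1 peak, chr2L:7261932-7262335, of rank 2034. Its summit lay 15037 bp from the TSS in the first intron, and the closest TSS was that of CG31909 at 4622 bp. It ranked 2203, 7129 and 1639 in the replicates, with signals of 93.3, 38.1 and 87.4 within their own lists. By rank it was leading in replicates 1 and 3 and far outside the leading peaks in replicate 2. Its deposited q-value was under 0.05 in replicate 1 and not in replicates 2 and 3.

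The pooled relaxed list, which by its deposited description also takes in background, held summits at 3 of the 4 members without an IDR summit, beside 68.5% of all protein-coding genes. wg (FBgn0284084, chr2L:7307159-7316265) had 5, the best of rank 11288, and its best replicate ranks were 6216, 5131 and 15148. Wnt5 (FBgn0010194, chrX:18501401-18505405) had 2. The better one lay 37 bp downstream of the TSS and ranked 4154, the closest to the IDR limit among these genes, with best replicate ranks of 3990, 4092 and 11869. arm (FBgn0000117, chrX:1891401-1900646) had 4, the best of rank 11113, 1079 bp upstream of a TSS. Its best replicate ranks were 10406, 9407 and 9352. None of the 4 genes had a leading summit in any replicate.

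pan (FBgn0085432, chr4:69326-114270) had no summit in the pooled list, and 1 relaxed summit of rank 6838 in replicate 1. Among the 500 genes nearest to it in length, 94.2% had a pooled summit. pan lies on the small chromosome 4, where 18 of the 30000 pooled peaks and 4 of the IDR peaks were called. There, 7 of 80 protein-coding genes had a pooled summit and 1 had an IDR summit. A lack of peaks at pan and a lack of peaks along chromosome 4 cannot be told apart.

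Most member peaks lay inside genes and away from promoters. Of the 13 summits, 10 were in introns of the member. Within 500 bp of a TSS there were 4 summits, all at a TSS of the member itself (arr, drl, nkd and the internal start of fz2), beside 42.1% of all IDR summits. More than 5000 bp from any TSS there were 6 summits, beside 16.5% of all IDR summits. The median distance to the closest TSS was 4622 bp for the members and 794 bp for all IDR peaks. For 7 of the 13 the closest TSS was that of another gene. The counts in introns and closest to another gene have no share of all IDR summits beside them. The counting windows span whole genes, so they favour summits inside genes. Neither these counts nor the distances were set beside those of peaks in genes of like length. The bases within 50 bp of the member summits had a median GC content of 41.6%, from 28.7% (nkd 1171) to 51.5% (fz2 2416), against 38.6% for all IDR summits.

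A forkhead word lay within 50 bp of 5 of the 13 member summits, which is 38.5% (Wilson 95% interval 17.7 to 64.5, counting error only). The share was 29.9% for all IDR summits. The interval treats the 13 summits as independent draws, though they lie in 6 chosen genes. It is therefore no test between these shares. The 5 peaks were fz 175, fz2 929, drl 752, drl 1680 and arr 1484. In the sequences printed above, the word GTAAATA begins 41 bp from the summit in fz 175 and 34 bp from it in drl 752, and ATAAATA begins 15 bp from it in fz2 929. In drl 1680 the word ATAAACA on the minus strand runs from 43 to 37 bp before the summit. arr 1484 holds GTAAATA and ATAAATA on the plus strand, which begin 49 and 37 bp before its summit. None of these words was GTAAACA, which 8.12% of all IDR summits had. The peak fz 151 had no forkhead word within 200 bp. It had ACAAATA words that begin 27 bp before its summit on the minus strand and 19 bp after it on the plus strand. This spelling was looked at after the data were seen, and it also lay within 50 bp of the summits of arr 541 and fz2 929. Its share among all IDR summits was not counted, while the wider word AYAAAYA was at 30.5% of them.

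By place, 1 of the 4 member summits near a TSS and 4 of the other 9 had the word, beside 25.4% and 33.1% of all IDR summits of these kinds. Within 200 bp, 10 of the 13 had a forkhead word, beside 61.3% of all IDR summits. The most were at fz 175, with 5 words. nkd 1171 and Wnt4 2034 had none at this distance, like fz 151. The TCF word CTTTGAT, which Pangolin binds, lay within 50 bp of none of the 13 summits, beside 1.13% of all IDR summits, and within 200 bp of none, beside 5.34%. A match is a run of letters and not a measured site.

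**Figure D4:**
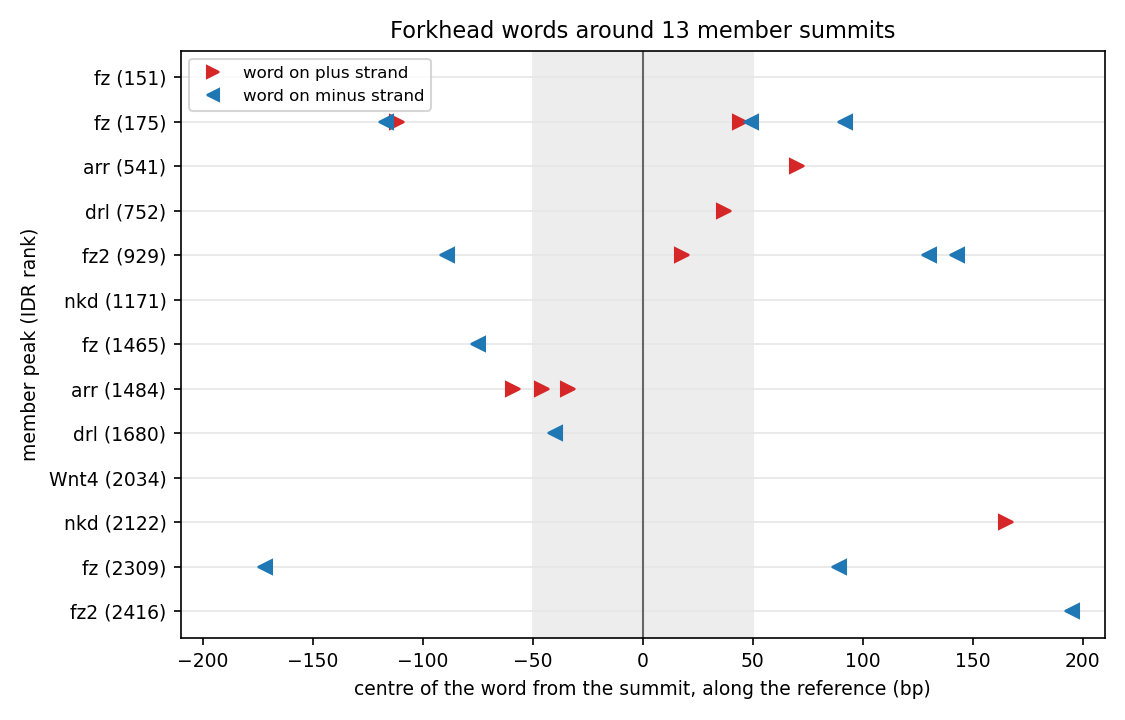
Forkhead words on the plus strand (red) and minus strand (blue) around the 13 member summits, by the distance in bp of the centre of the word from the summit along the reference. The grey band marks 50 bp to each side. It holds words at 5 peaks, all of them outside the central 15 bp to each side, and fz 151, nkd 1171 and Wnt4 2034 have no word at all.

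Among 40 other listed genes of the pathway, 18 had an IDR summit, where genes of like length gave a sum of 11.9, and they held 36 summits against a sum of 20.4. A leading summit lay in every replicate at 14 of them, against a sum of 8.5. Of 6 genes for the secretion and spread of ligands, 4 had a peak, where genes of like length gave a sum of 1.86: wls, which carries Wnts to the surface, the glypicans dally and dlp, and Notum, an enzyme that inactivates Wnts. Notum had peaks of rank 248 and 588 within 11.3 kb, with ranks of 254, 278 and 265 in the replicates for the stronger. Its density of 17.7 per 100 kb was above that of every member. So were those of ebd1 (21.4), wls (20.0), otk (14.7), fz3 (12.3) and dnt (11.3). A short window raises this density, as at ebd1 and wls, with 1 summit each in 4.67 and 5.01 kb. Among the other genes for secretion and spread, the highest-ranked pooled summit was at Swim (rank 4878).

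Of 7 other receptor genes, fz3, dnt and otk had a peak, and dnt, a Ryk-family gene like drl, had 3, of rank 1138, 2328 and 2743. The peak of otk 547 bp from its TSS had rank 662. otk2 had none, with a best pooled rank of 3328. Of 4 other ligands, Wnt6 had a peak (rank 2668), and Wnt2 had a best pooled rank of 4900. Genes of like length gave a sum of 2.08 for the 7 other receptors and 1.19 for the 4 other ligands.

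Of 9 cytoplasmic genes, Axn, Apc, sgg and gish had a peak, beside a length sum of 2.74. These encode scaffold and kinase parts of the machinery that destroys Armadillo, and gish a casein kinase. The gish peak 181 bp upstream of an internal TSS had rank 115, stronger than any member peak, and the stronger sgg peak had rank 347. CkIalpha had none, with a best pooled rank of 4001. Of 8 nuclear genes, gro, CtBP, ebd1, nej and nmo had a peak, beside a length sum of 2.40, and nmo, which encodes a kinase that acts on Pangolin, had 5. hyx had a best pooled rank of 5766. Of 4 planar polarity genes, pk had 3 peaks, beside a length sum of 1.36 genes, and stan had a best pooled rank of 3151. The forkhead genes slp1 and slp2, which help to maintain wg in the fly, had none, beside a length sum of 0.244 genes. Their best pooled summit was at slp1 (rank 9248). Unlike those of the members, some of these summits lay in the window of another annotated gene as well, namely at wls, dally, dnt, Axn, Apc, CtBP, nej, nmo and pk. The single wls summit was 29 bp from the TSS of Adck5, and the single Axn summit 53 bp from that of Mgat2.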

How the data were processed

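Per the labels' protocols, sonicated chromatin fragments were 200 to 800 bp long, and each biological replicate has 1 technical replicate. A free-text label calls the samples input controls, whereas the assay and antibody labels mark them as immunoprecipitations, which is how they were used. The embryo age is that of the source name. Per the deposited file descriptions, relaxed lists of 30000 peaks on dm6 were called for each replicate and for pooled replicates against 1 shared input alignment, and the IDR list was derived from them. Its 2919 peaks were the strongest of the pooled list. For the aligner, caller, settings, IDR threshold and read depth nothing is stated in the sources used here. The precision rests on the spread of 3 replicates, which share 1 strain. Peak strength is the authors' deposited signal, which ranks peaks inside 1 list and is not compared between lists. The deposited −log10 q-value was used to count peaks with q under 0.05, which were 4964, 3017 and 1598 in replicates 1 to 3.

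Gene models were from Ensembl release 115 without transposable elements, and bases from the NCBI release 6 genome. Overlaps needed at least 1 bp. The software was pandas 2.3.3 and NumPy 2.4.6 under Python 3.11.15, with figures from matplotlib 3.10.9, and the counting was tested on simulated data. With 1 group and no second condition no test between samples was made. The members and the lists of other genes were chosen with earlier results of these data known. The genes named are all members, the listed pathway genes with an IDR summit, and in each list the gene without one whose pooled summit ranks highest. Named beside these are slp2 as the other gene of its list, Wnt10 as the end of the ligand cluster, genes whose TSS is closest to a named peak, and Ror, chosen after its values were seen. Alternatives were the peak threshold, the window, the number of leading peaks, the overlap, the word and its distance, and leaving out each replicate.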

Additional observations from a re-analysis of the deposited data

How the results depend on the processing

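Of 49 alternative values, 36 stayed within 1.5 times the reported count, or for the mean of leading summits within its SD. The 6 members with a peak ranged from 4 to 6 in all alternatives run. The 13 IDR summits at members became 6 among the strongest 1459 IDR peaks and 4 within 1000 bp of a TSS of the gene. The mean of 14.0 leading summits became 7.33 with the leading 1500 peaks, 27.7 with the leading 5000 and 3.33 within 1000 bp of a TSS, and ranged from 12 to 16 when 1 replicate was left out. The 6 member peaks leading in all 3 replicates became 10 with the leading 5000 peaks, and ranged from 6 to 10 when 1 replicate was left out, with 10 without replicate 2. The 4 members with a leading summit in every replicate became 2 within 1000 bp of a TSS, and 4 to 5 when 1 replicate was left out. The 5 summits with a forkhead word became 8 within 100 bp (44.6% of all IDR summits), 1 within 25 bp (17.3%), 3 of 6 among the strongest 1459 IDR peaks (33.6% of all those peaks) and 0 with GTAAACA alone (8.12%). The 4 summits near a TSS became 1 among the strongest 1459. The alternatives other than leaving out a replicate keep fewer or more peaks, bases or spellings by construction. Leaving out a replicate keeps the same IDR peaks, and the count leading in every replicate used could then only stay or rise. That count was 6 without replicate 1, 8 without replicate 3 and 10 without replicate 2. Neither these counts nor the one with the leading 5000 peaks has a share of all IDR peaks beside it. A word with AYAAAYA in place of RTAAAYA, chosen after the data were seen, was at 5 member summits and at 30.5% of all IDR summits. No paired analysis was possible because the samples form 1 group.

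The read depth is unknown, so a gene without a peak may have had enrichment below what these lists show. An error in the shared input would reach all replicates. The share of member peaks at q under 0.05 differed between replicates, with 13, 10 and 9 of the 13 in replicates 1, 2 and 3, beside 96.8%, 79.8% and 54.5% of all IDR peaks.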

Other observations

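wg and Wnt4 lie head to head on arm 2L in a cluster of ligand genes that runs from Wnt4 to Wnt10 over 122 kb. An IDR peak lay between them and outside both windows, at chr2L:7295859-7296262. Its summit at 7296061 was 11098 bp upstream of wg and 18890 bp upstream of Wnt4, and the start of wg was the closest TSS of any gene. The peak had rank 1328 with a signal of 290.5, and ranked 1100, 1716 and 1584 in replicates 1, 2 and 3. It was leading in all 3, which the Wnt4 peak of rank 2034 was not. No forkhead word lay within 50 bp of its summit. The cluster held 3 IDR summits in all, the other one in Wnt6 at 7339575 with replicate ranks of 2382, 1527 and 3831. The windows used for the members reach 2000 bp upstream, so this peak was counted for neither gene.

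Some listed genes differed between single replicates and the pooled list. Ror, a small receptor gene, had a summit of rank 714 in replicate 2 and none in the pooled list or in replicates 1 and 3. The pk peak of rank 2638 had no overlapping peak in replicate 2 and ranked 1505 and 1410 in replicates 1 and 3. The fz3 peaks ranked 2568 and 2287 in replicate 1 and 1347 and 2056 in replicate 3, but 6256 and 5759 in replicate 2.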
